A study of Mus musculus with 8 samples.

Results

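Egr1, Egr2, Egr3, Nr4a1, Nr4a2 and Nr4a3, with the EGR co-repressors Nab1 and Nab2, are transcription regulators of the response to T cell receptor signals. They were chosen by gene symbol, as the rows of the deposited table whose symbol equals one of these names, and the rule matched 8 of 27179 genes. Expression was measured by RNA sequencing in CD4+ T cells from the spleens of 8-week-old offspring of C.Cg-Foxp3tm2Tch/J mice, a strain with a fluorescent reporter at Foxp3. Parents of the Cd offspring drank water with 10 ppm CdCl2 from before mating, the mothers through pregnancy, until within 12 hours of birth, and parents of the control offspring drank unspiked water. Cells were enriched by negative selection, purified by sorting (the study describes them as CD4+CD25- conventional T cells), and lysed at once (unstimulated, 0 h) or after 16 h with beads carrying anti-CD3 and anti-CD28 (stimulated). There were 2 libraries in each of 4 groups, control unstimulated, control stimulated, Cd unstimulated and Cd stimulated, numbered 6 and 7 in the labels. The labels give neither the sex of the offspring nor whether libraries of 1 number come from 1 mouse, so the p values measure the spread between these libraries only. Unstimulated cells were not cultured, so time in culture and stimulation cannot be told apart.

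EGR1, EGR2 and EGR3 are zinc finger factors that bind GC-rich DNA, and their genes are induced within minutes of receptor engagement through the ERK kinases and serum response factor. NR4A1 (Nur77), NR4A2 (Nurr1) and NR4A3 (Nor1) are orphan nuclear receptors induced by calcium and the MEF2 and CREB factors, and Nr4a1 is widely used as a reporter of receptor signal strength. NAB1 and NAB2 bind EGR proteins and repress their targets, and NAB2 is itself an EGR target. In T cells, EGR2, EGR3 and the NR4A receptors are known for roles in anergy, tolerance and regulatory T cells.

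Promoters are shown first, since the Nr4a genes all hold several copies of a motif there. Promoter sequences from RefSeq (GRCm38.p6) matched 6 of the 8 genes, Egr2, Nr4a1, Nr4a2, Nr4a3, Nab1 and Nab2. Each window held the 250 bases before 1 transcription start in that set. The Nr4a2 and Nab2 windows lie outside the RefSeq span of the gene, and those of Egr2, Nr4a1 and Nab1 wholly inside it. The Nr4a3 span starts at 48045078, within the stretch shown, so most of that window lies inside it too. Both strands were searched for the cyclic AMP response element (CRE, TGACGTCA), its half-site TGACG (which every CRE also contains) and the EGR site GCGNGGGCG. Also searched for were the NR4A monomer site (NBRE, AAAGGTCA) and the CArG box that binds serum response factor. Sequences run 5′ to 3′ on the strand of the gene, up to the first exon annotated by GENCODE where that comes earlier, and capitals mark half-sites, EGR sites and the CArG box.
Nr4a1 (chr15:101266596-101266845, plus strand): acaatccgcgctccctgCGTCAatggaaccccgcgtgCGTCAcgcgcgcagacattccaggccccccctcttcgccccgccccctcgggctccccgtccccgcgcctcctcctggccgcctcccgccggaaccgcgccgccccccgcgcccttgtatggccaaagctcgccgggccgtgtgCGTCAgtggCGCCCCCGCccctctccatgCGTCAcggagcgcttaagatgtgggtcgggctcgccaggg
Nr4a2 (chr2:57124004-57124253, minus strand): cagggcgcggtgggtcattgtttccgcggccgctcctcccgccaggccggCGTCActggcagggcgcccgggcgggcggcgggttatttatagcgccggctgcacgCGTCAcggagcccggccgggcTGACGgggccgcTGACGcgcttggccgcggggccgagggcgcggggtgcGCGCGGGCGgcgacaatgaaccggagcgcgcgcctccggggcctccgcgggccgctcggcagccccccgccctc
Nr4a3 (chr4:48045055-48045152, plus strand): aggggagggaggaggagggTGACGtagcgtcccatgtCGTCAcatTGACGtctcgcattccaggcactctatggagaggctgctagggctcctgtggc
Egr2 (chr10:67537619-67537868, plus strand): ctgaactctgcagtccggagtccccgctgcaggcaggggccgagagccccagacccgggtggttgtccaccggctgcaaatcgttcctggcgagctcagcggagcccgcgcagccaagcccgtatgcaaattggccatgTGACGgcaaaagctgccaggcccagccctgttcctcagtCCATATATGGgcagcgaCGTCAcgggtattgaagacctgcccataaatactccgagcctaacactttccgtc

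Each of the Nr4a1, Nr4a2 and Nr4a3 windows held 4 CRE half-sites, 3 of them within the 98 bases shown for Nr4a3. Of 32851 promoter windows of the same length, 17.8% held at least 1 half-site and 45 windows, 0.137%, held 4 or more. The limit of 4 equals the number in the Nr4a windows, which are themselves among the 45. Windows were not matched for GC content, which was 74.4%, 80.0% and 63.6% for Nr4a1, Nr4a2 and Nr4a3. None of the members' windows held the full CRE, found in 1.55% of all windows, or the NBRE, found in 1.34%. The Egr2 window shown, 1 of 5 for this gene and the one that ends at the GENCODE start of its RefSeq transcript, held 2 half-sites and a CArG box, which 1.47% of all windows held. EGR sites, present in 4.70% of windows, were found once in Nr4a1, once in Nr4a2 and 3 times in Nab1, and not in the Nab2 window. Only the first 19 bases of the Nab1 window precede its first GENCODE exon, and its 3 EGR sites lie past that point. These matches describe the letters of the windows and say nothing of binding in these cells.

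The libraries held 15542732 to 25486791 reads counted on genes, recovered from the steps between low values, with a median of 19434588. Behind each member's value stood at least 104 reads (Nr4a2, control stimulated) and up to 16636 reads (Nr4a1, Cd stimulated). Xist, the RNA of the inactive X chromosome, lay between 49.3 and 67.1 RPKM (reads per kilobase of transcript, scaled to library size) in all 8 libraries, and the Y-linked Ddx3y, Kdm5d, Eif2s3y and Uty at or under 0.0105, the pattern of female cells. The 8 T cell marker genes summed to 2322 to 2492 RPKM in unstimulated and 1660 to 1707 in stimulated libraries. Markers of other cells were low: the B cell list summed to at most 4.89 RPKM, nearly all of it Cd79a, at 2.87 to 4.73, with Ms4a1 and Ebf1 at 0 in all libraries. Cd8a stayed under 1, whereas Cd8b1 averaged 9.98 ± 0.821 (SD, n = 2) in control unstimulated cells. The 3 NK markers summed to 3.26 to 4.47 RPKM in unstimulated and 0.147 to 0.293 in stimulated libraries, and the 6 myeloid markers to 1.87 to 2.03 and 0.380 to 0.582. Each unstimulated sum was mostly 1 gene. Klrb1c averaged 4.32 RPKM in control unstimulated and 0.220 in control stimulated cells, and Itgam 1.80 and 0.295. The other 2 NK and 5 myeloid markers stayed under 1 RPKM in all 8 libraries. The part of these markers in the results on stimulation was not tested. In bulk samples, fewer cells of a type and less RNA per cell cannot be told apart.

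The comparison of stimulated with unstimulated cells asks how the receptor-signal factors stand after 16 h of stimulation. In control offspring Nr4a3, Egr3 and Egr2 rose, by 8.68-fold, 7.23-fold and 2.74-fold, while the other 5 genes were not called. Nr4a2 and Nab1, at -0.99 and -0.53 on the log2 scale, passed the limit on the adjusted p but not the 2-fold that a call also required, and Egr1, Nr4a1 and Nab2, at 0.54, 0.44 and 0.25, passed neither. A gene counted as called where the limma fit of log2(RPKM + 0.1) gave an adjusted p (Benjamini-Hochberg, 12605 genes) below 0.01 together with a change exceeding 2-fold, and all 8 members were among the genes fitted. In control offspring 3 of 8 members were called higher, against 11.5% of all genes tested, and 0 lower, against 7.17%. In Cd offspring 4 were called higher, against 11.4%, and 0 lower, against 7.24%. At an adjusted p under 0.01 with no limit on the fold, 5 members passed in control offspring, against 51.7% of genes, and 7 in Cd offspring, against 52.5%. The median log2 fold change of the 8 members was 0.49 in control and 0.90 in Cd offspring, beside 0.07 and 0.05 over all genes tested.

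**Figure D1:**
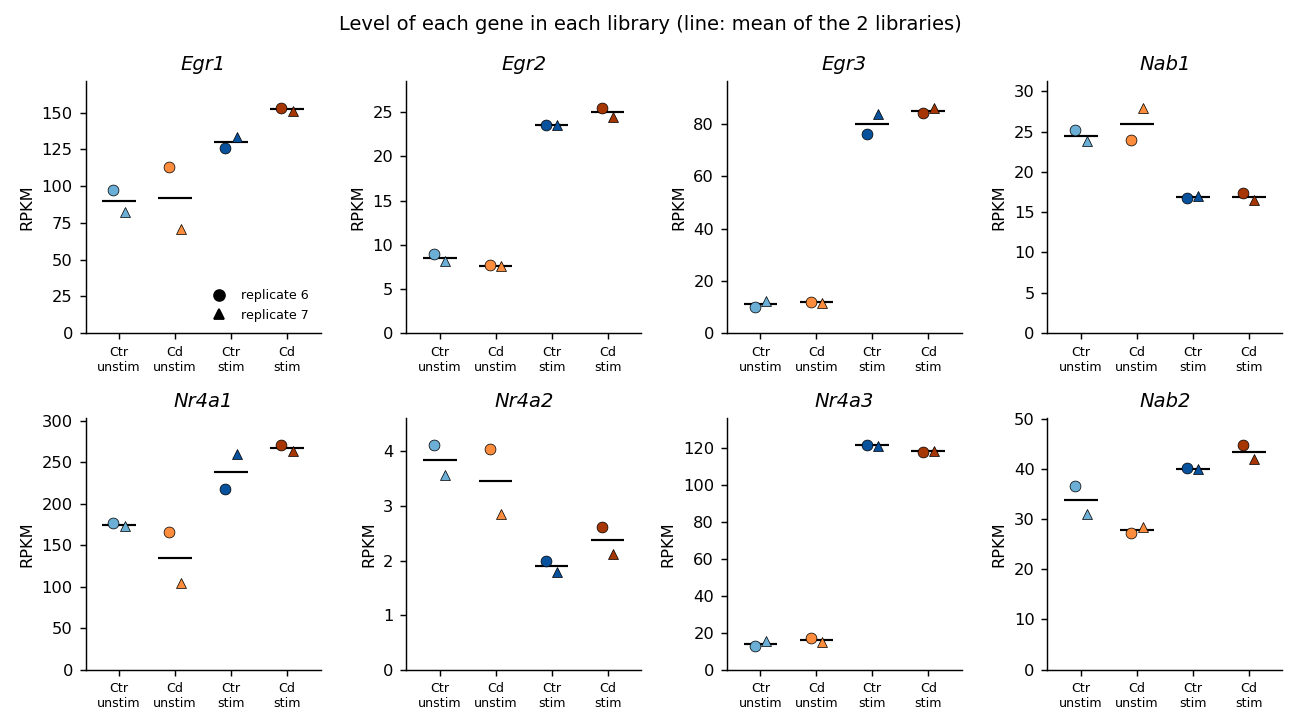
Level of each gene in RPKM, with each panel's axis starting at 0, in the 2 libraries (circle, replicate 6; triangle, replicate 7) of each of the 4 groups; the line is the group mean. Egr2, Egr3 and Nr4a3 separate stimulated from unstimulated libraries widely, Nab1 and Nr4a2 lie lower in all stimulated libraries, and the Cd unstimulated libraries lie far apart for Egr1 and Nr4a1.

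Egr1, the most abundant of the Egr transcripts, was at 97.4 and 82.2 RPKM in the control unstimulated libraries and at 126 and 134 after stimulation. In Cd offspring it was at 113 and 70.7 RPKM before and 153 and 151 after. All 4 stimulated libraries lay above all 4 unstimulated ones, and the Cd unstimulated pair had the widest spread. The log2 fold change was 0.54 ± 0.19 (SE; limma adjusted p = 0.0408) in control and 0.77 ± 0.19 (adjusted p = 0.00912) in Cd offspring, and neither was called. In Cd offspring the value was 0.43 without Cd unstimulated replicate 7 and 1.11, then called, without replicate 6.

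Egr2, which with Egr3 restrains T cell activation, had 8.93 and 8.11 RPKM in control unstimulated cells and 23.5 in each control stimulated library. The Cd libraries held 7.66 and 7.55 RPKM before and 25.5 and 24.5 after stimulation. The increase was 2.74-fold (95% interval 2.46 to 3.06, limma adjusted p = 1.6e-06) in control and 3.26-fold (2.92 to 3.63, adjusted p = 1.0e-06) in Cd offspring. The 2 stimulated groups lay close together and no library of one state reached the other. The Egr2 locus (chr10:67534469-67542188, plus strand) overlaps the gene model Gm32255 over 1712 bases, and the strand setting of the authors' counting is not given in the sources used here.

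Egr3 was near Egr2 before stimulation, at 9.93 and 12.1 RPKM in control and 12.0 and 11.5 in Cd libraries. After stimulation it stood at 76.3 and 83.8 RPKM in control and 84.2 and 86.2 in Cd libraries. Control and Cd libraries overlapped before stimulation and lay side by side after it, and the states were far apart. Egr3 (chr14:70077317-70082613, plus strand) rose 7.23-fold (95% interval 6.20 to 8.43, limma adjusted p = 5.2e-07) in control and 7.18-fold (6.16 to 8.38, adjusted p = 6.0e-07) in Cd offspring. Its place among the 12605 tested genes moved from 48.4% of them above it in control unstimulated cells to 6.61% above it after stimulation. The other Egr gene, Egr4, had 0 to 7 reads in any library and was not tested, and Wt1, whose protein has a related zinc finger domain, was listed at 0 in all 8 libraries.

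**Figure D2:**
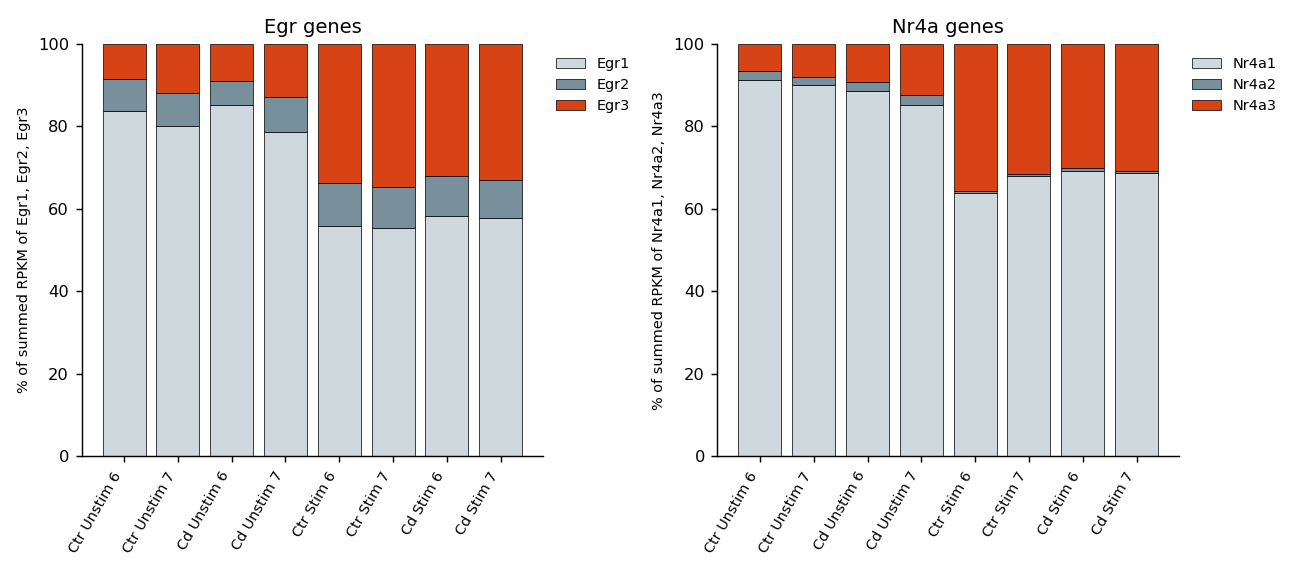
Share of each gene, in percent, in the summed RPKM of Egr1, Egr2 and Egr3 (left) and of Nr4a1, Nr4a2 and Nr4a3 (right), with 1 bar per library. The part of Egr3 is 8.55% to 12.8% in the unstimulated and 32.0% to 34.8% in the stimulated bars, and that of Nr4a3 6.50% to 12.4% and 30.1% to 35.7%.

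The makeup of the Egr transcripts shifted accordingly. Summed over Egr1, Egr2 and Egr3, RPKM was 102 and 116 in control unstimulated and 226 and 241 in control stimulated libraries. Egr1 made up 80.2% and 83.8% of that sum before stimulation and 55.5% and 55.8% after it, and Egr3 made up 8.55% and 11.8% before and 33.8% and 34.8% after. The ratio of Egr1 to Egr3 thus went from 6.77 and 9.80 to 1.60 and 1.65. In Cd offspring the ratio was 9.38 and 6.14 before and 1.82 and 1.76 after. Between 2 groups of 2 libraries an exact permutation test cannot give a two-sided p under 0.333, so these sums and ratios are given without one. RPKM here is per counted length. The counted models of Egr3 and Nr4a3 held 1416 and 1884 bases, 32.1% and 31.5% of the exon bases that GENCODE gives these genes. The share was 68.5% for Egr1, 70.6% for Nr4a1, 82.5% for Nr4a2, 87.3% for Egr2, 87.6% for Nab2 and 124% for Nab1. Levels between genes, and ratios such as Egr to Nab, thus rest on those models.

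Nr4a1 had the highest level of the 8 genes in every group. It was at 177 and 173 RPKM in control unstimulated and at 218 and 259.7 in control stimulated libraries. In Cd offspring it was at 165 and 104 RPKM before and 271 and 264 after stimulation. No unstimulated library reached a stimulated one, and replicate 7 of the Cd unstimulated group was the lowest of all 8. The log2 fold change was 0.44 ± 0.19 (limma adjusted p = 0.0752) in control offspring and was not called. In Cd offspring it was 1.02 ± 0.19 (adjusted p = 0.00218) and was called, just past 2-fold. This call rested on single libraries: the value was 0.69 without Cd unstimulated replicate 7 and 1.36 without replicate 6, and the adjusted p rose to 0.0136 or 0.0121 without either Cd stimulated library. It was also lost, at 0.98 and 0.97, with median-of-ratios scaling and with voom on the recovered reads.

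Nr4a2 was the lowest of the 8 genes and went the other way from its relatives. Its levels in control libraries were 4.12 and 3.57 RPKM before and 2.0 and 1.78 after stimulation, and in Cd libraries 4.05 and 2.85 before and 2.62 and 2.11 after. Stimulated libraries were all lower than unstimulated ones, by a small margin in Cd offspring. The log2 fold change of -0.99 ± 0.20 (limma adjusted p = 0.00292) in control offspring just missed 2-fold, and the gene was called lower, at -1.06 to -1.10, with median-of-ratios scaling, quantile normalization and voom. In Cd offspring it was -0.51 ± 0.20 (adjusted p = 0.0495), or -0.27 without Cd unstimulated replicate 6 and -0.76 without replicate 7, and was not called. The locus (chr2:57106830-57124003, minus strand) shares 670 bases with the gene model LOC105244150.

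Nr4a3 had the largest increase of the 8 genes in control offspring, while in Cd offspring it and Egr3, at 2.86 ± 0.10 and 2.84 ± 0.09 on the log2 scale, could not be ranked, and their order turned without Cd unstimulated replicate 7 or Cd stimulated replicate 6. Control libraries were at 12.6 and 15.3 RPKM before and at 122 and 121 after stimulation, and Cd libraries at 17.4 and 15.1 before and 118 in each library after. The 4 stimulated libraries lay close together and far from the rest. The rise was 8.68-fold (95% interval 7.39 to 10.2, limma adjusted p = 4.7e-07) in control and 7.24-fold (6.16 to 8.51, adjusted p = 6.8e-07) in Cd offspring. Nr4a1 made up 90.1% and 91.4% of the summed Nr4a RPKM in control unstimulated and 63.8% and 67.9% in control stimulated libraries, while Nr4a3 (chr4:48045078-48086447, plus strand) went from 6.50% and 8.00% to 35.7% and 31.6%. The ratio of Nr4a1 to Nr4a3 went from 14.1 and 11.3 to 1.79 and 2.15 in control and from 9.52 and 6.88 to 2.30 and 2.23 in Cd libraries.

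**Figure D3:**
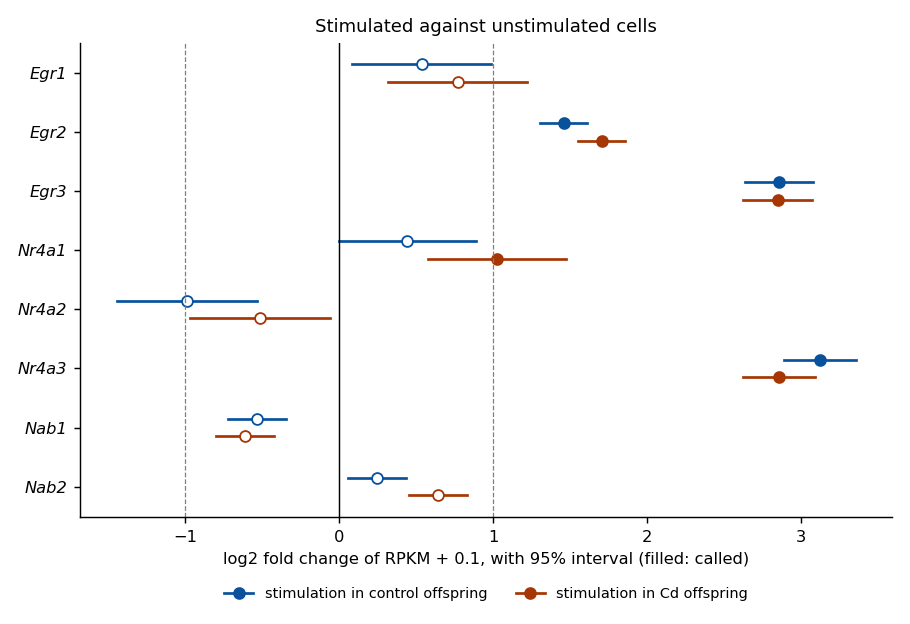
Log2 fold change of each gene, stimulated against unstimulated, on the scale log2(RPKM + 0.1) in control (blue) and Cd (brown) offspring; bars are 95% intervals from limma, filled points were called and dashed lines mark 2-fold. Egr2, Egr3 and Nr4a3 are past 2-fold with their whole interval in both, and Nr4a1 is called in Cd offspring only, with overlapping intervals.

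The EGR co-repressors differed from each other. Nab1 was at 25.2 and 23.8 RPKM in control unstimulated and 16.7 and 17.0 in control stimulated libraries, and in Cd offspring at 24.0 and 27.9 before and 17.4 and 16.5 after. Every stimulated library was lower than every unstimulated one, and the log2 fold change was -0.53 ± 0.08 (limma adjusted p = 0.00068) in control and -0.61 ± 0.08 (adjusted p = 0.00035) in Cd offspring, both under 2-fold. Nab2 went from 36.6 and 31.1 RPKM to 40.2 and 39.9 in control and from 27.2 and 28.3 to 44.8 and 41.9 in Cd libraries. Here stimulated libraries were all higher, by 0.25 ± 0.08 (adjusted p = 0.0275) on the log2 scale in control and 0.64 ± 0.08 (adjusted p = 0.00027) in Cd offspring, and neither was called. The control value was 0.13 without control unstimulated replicate 7 and 0.080 with quantile normalization. The ratio of Nab2 to Nab1 was 1.45 and 1.30 in control unstimulated and 2.41 and 2.34 in control stimulated libraries, and that of the summed Egr to the summed Nab RPKM was 1.88 and 1.87 before and 3.97 and 4.24 after. In Cd offspring the Egr to Nab ratio was 2.59 and 1.59 before and 4.23 and 4.48 after, with the wide spread in the unstimulated pair. Nab2 (chr10:127660918-127666703, minus strand) shares 70 bases with Stat6, which was at 66.1 and 68.5 RPKM in control unstimulated and 91.6 and 94.4 in control stimulated libraries.

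In the order of levels per counted length in control unstimulated cells, Nr4a1 was followed by Egr1, Nab2, Nab1, Nr4a3, Egr3, Egr2 and Nr4a2, with no overlap between neighbours. After stimulation of control cells the order was Nr4a1, Egr1, Nr4a3, Egr3, Nab2, Egr2, Nab1 and Nr4a2. The closest neighbours were Egr1, at 130 ± 5.52 RPKM (SD, n = 2), and Nr4a3, at 121 ± 0.514, which still did not overlap. Nr4a3 and Egr3 stood below both co-repressors before stimulation and above both after it, and Egr2 stood below Nab1 before and above it after.

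The levels at 16 h can be set beside other immediate early genes. Of 19 such genes outside the Egr and Nr4a families, all tested, 3 were called higher and 13 lower in control offspring, and 3 higher and 11 lower in Cd offspring. Shares over all genes tested were 11.5% higher and 7.17% lower in control, and 11.4% and 7.24% in Cd offspring. Their median log2 fold change was -1.85 in control and -1.50 in Cd offspring. Fos, a subunit of AP-1, was at 577 and 651 RPKM in control unstimulated and 11.1 and 11.2 in control stimulated libraries, and Jun, its partner, at 433 and 389 and then 7.63 and 6.68. Among the decreases were also Klf4, a growth inhibiting factor, at -6.69 ± 0.18 on the log2 scale, and Dusp1, a phosphatase of MAP kinases, from 261 ± 15.2 (SD, n = 2) to 10.8 ± 0.188 RPKM. Those called higher were Myc, Dusp5 and Atf3, at 2.49 ± 0.11, 1.93 ± 0.16 and 1.65 ± 0.27. Myc is a driver of cell growth, Dusp5 a nuclear ERK phosphatase and Atf3 a stress-responsive factor. Atf3 was low, at 0.487 ± 0.0130 RPKM (SD, n = 2) before and 1.77 ± 0.484 after stimulation in control offspring. Egr1 and Nr4a1, by contrast with Fos and Jun, were high in both states, and unstimulated cells held 89.8 ± 10.8 and 175 ± 2.70 RPKM of them. This was not particular to them, since some of the 19 genes were also high in both states of control cells. Dusp2 averaged 144 RPKM before and 203 after stimulation, Ier2 211 and 109, Junb 948 and 120, and Zfp36 519 and 108.

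**Figure D4:**
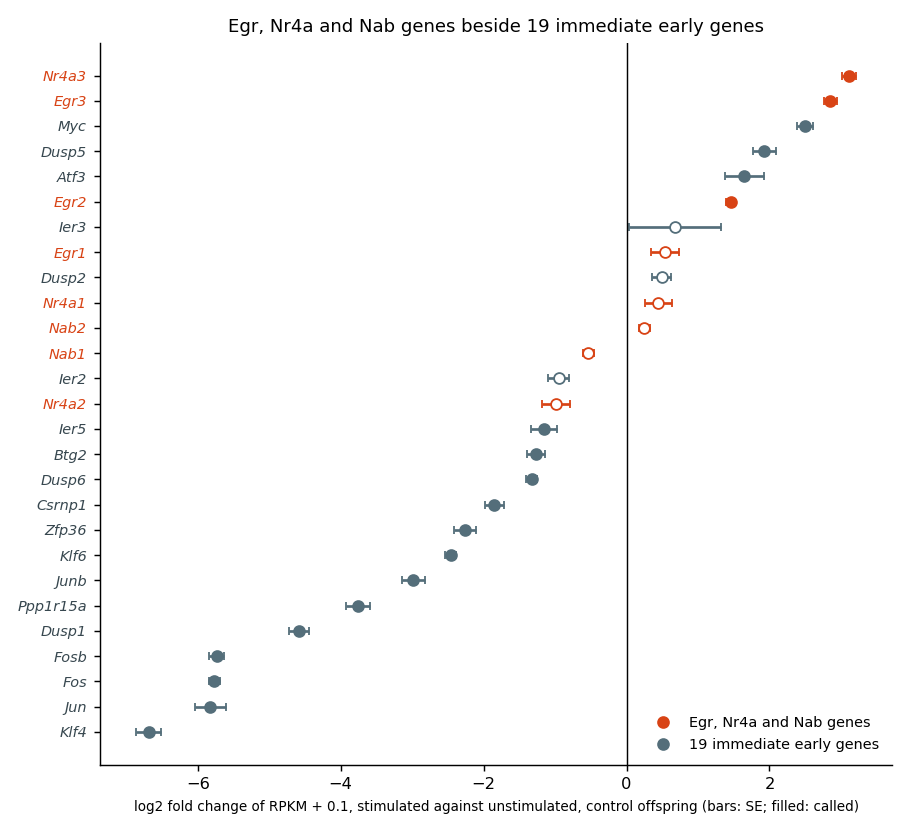
Log2 fold change on the scale log2(RPKM + 0.1), stimulated against unstimulated cells of control offspring, for the 8 Egr, Nr4a and Nab genes (red) and 19 immediate early genes (grey), with standard errors from limma; filled points were called. Nr4a3 and Egr3 lie at the top, above Myc, and 13 grey genes lie at or below -1.16.

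Genes of the signal routes that induce these factors can be read only against the 11.5% of all genes called higher and 7.17% called lower in control offspring, and lists of this size show nothing particular to them. Of 11 genes of the ERK and serum response route, among them Srf, Elk1, Elk4 and Rasgrp1, 0 were called in either kind of offspring, and their log2 fold changes in control offspring lay between -0.74 (Rasgrp1, a Ras activator) and 0.72 (Elk3). Of 7 genes tested of the calcium route to Nr4a genes, 1 was called, Hdac7, a histone deacetylase bound by MEF2 factors, which rose from 40.9 ± 0.395 (SD, n = 2) to 139 ± 7.55 RPKM in control offspring. Mef2c was near 0 and not tested. Of 8 tested partners and co-repressors, Rxra, the retinoid X receptor with which NR4A1 and NR4A2 can pair, rose from 3.59 ± 0.157 to 15.04 ± 1.15 RPKM. Chd3, a remodeller of the NuRD complex, whose relative CHD4 binds NAB2, fell from 192 ± 8.09 to 85.6 ± 1.43 RPKM, and the calls of Rxra and Chd3 were made in Cd offspring too. Chd4 itself went the other way, by 0.55 ± 0.05 (SE; limma adjusted p = 3.1e-05) on the log2 scale in control offspring. In Cd offspring it rose by 0.51 ± 0.05 (limma adjusted p = 4.6e-05), and neither change reached 2-fold.

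Genes linked to EGR2 and EGR3 in tolerance and exhaustion moved in both directions. Of 13 tested, 5 were called higher and 3 lower in control offspring, and the same 8 genes in Cd offspring, with a median log2 fold change of 0.30 and 0.31. Over all genes tested, 11.5% were called higher and 7.17% lower in control offspring, and 11.4% and 7.24% in Cd offspring. Lag3, an inhibitory receptor, rose by 5.58 ± 0.51 on the log2 scale in control offspring, Tnfrsf9 (4-1BB, a costimulatory receptor) by 3.94 ± 0.13, and Sema7a, a membrane semaphorin, by 2.95 ± 0.15. Crtam, an adhesion receptor, fell by 1.91 ± 0.18, Socs3, a cytokine signal inhibitor, by 1.54 ± 0.16, and Dgka, a kinase that removes diacylglycerol and so damps receptor signals, by 1.29 ± 0.05. Dgka stood at 526 ± 10.7 RPKM before and 214 ± 5.41 after stimulation.

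Among 8 tested genes linked to the NR4A receptors in regulatory and exhausted T cells, 3 were called higher and 1 lower, the same 4 genes in both kinds of offspring. The shares of all genes tested, here and for the activation genes below, were 11.5% higher and 7.17% lower in control offspring. In Cd offspring they were 11.4% and 7.24%. Il2ra, the high-affinity IL-2 receptor chain and an activation gene of any T cell, rose from 1.89 ± 0.120 to 108 ± 14.0 RPKM in control offspring. Ctla4, an inhibitory receptor, rose by 2.35 ± 0.13 on the log2 scale and Pdcd1, which encodes PD-1, by 2.04 ± 0.33. Tox, a nuclear factor of exhausted T cells, fell from 27.8 ± 0.918 to 13.1 ± 1.44 RPKM. Foxp3 was at 4.96 ± 0.170 RPKM before and 6.64 ± 0.924 after stimulation and was not called. Of the general activation genes 5 of 6 were called higher, led by Irf4, a factor induced in proportion to receptor signal, from 2.65 ± 0.298 to 543 ± 25.7 RPKM. These lists were chosen with earlier results known and share Il2ra, so the counts describe them only.

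Likeness of pattern was measured as the root mean square difference of centred log2(RPKM + 0.1) over the 8 libraries. The 8252 genes compared had a mean RPKM of at least 5. Symbols starting with Gm and a digit, LOC or Mir, or ending with Rik, were left out. By this measure Egr3 and Nr4a3 were among each other's nearest 3 genes, at 0.106. The nearest to Egr3 was Ehd1, an endosome recycling protein, at 0.103, and the nearest to Nr4a3 was Car12, a carbonic anhydrase, at 0.0886. Nr4a1 was nearest to Atp5d, an ATP synthase subunit, at 0.0600, followed by Dusp2, an ERK phosphatase on the immediate early list, at 0.0736. Egr2 was nearest to Pabpc4, a poly(A) binding protein, at 0.0444, and Nab1 to Pcmtd1 at 0.0280. Egr1, Nr4a2 and Nab2 were nearest to Ckb (creatine kinase B), Trav13-1 (a T cell receptor segment) and Micos13 (a mitochondrial protein), at 0.0935, 0.121 and 0.0632.

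The comparison of Cd with control offspring asks whether parental exposure left a mark on these genes at 8 weeks, at an adjusted p under 0.05. In unstimulated cells 0 of 8 members were called, against 0.896% of all genes tested, and in stimulated cells 0 of 8, against 0% of all genes. At an unadjusted p under 0.05 limma passed Egr2 and Nab2 in unstimulated cells and no member in stimulated cells. Over all 12605 genes tested, 1748 passed that limit in unstimulated and 414 in stimulated cells. The interaction, which sets the response of Cd offspring against that of control offspring, called 0 of 8 members, against 0.357%. It again passed Egr2 and Nab2 at an unadjusted p under 0.05, as it did 1332 of the 12605 genes.

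**Figure D5:**
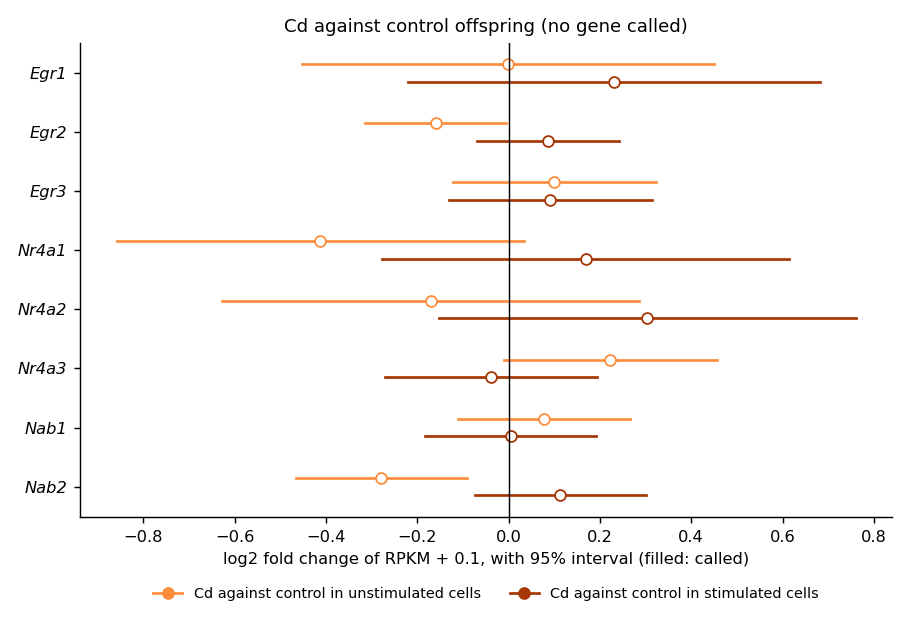
Log2 fold change of each gene, Cd against control offspring, on the scale log2(RPKM + 0.1) in unstimulated (orange) and stimulated (brown) cells; bars are 95% intervals from limma. No gene was called, the intervals of Nab2, from -0.47 to -0.09, and of Egr2, from -0.31 to -0.0047, lie wholly below 0 in unstimulated cells, and Egr1, Nr4a1 and Nr4a2 have the widest intervals.

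In unstimulated cells Nab2 was lower in both Cd libraries than in both control libraries, with a log2 fold change of -0.28 ± 0.08 (95% interval -0.47 to -0.09, limma adjusted p = 0.210). Egr2 differed by -0.16 ± 0.07 (adjusted p = 0.348) and Nr4a1 by -0.41 ± 0.19 (adjusted p = 0.392), also without overlap. Over all genes tested, the 2 groups did not overlap for 42.3%, and 3 of the 8 members, Egr2, Nr4a1 and Nab2, were of that kind. Egr1 differed by less than its standard error of 0.19 and the other members by -0.17 to 0.22, with overlapping libraries.

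In stimulated cells 7 of the 8 members, all but Nab1, had groups that did not overlap, against 36.7% of all genes tested. Of these 7, Nr4a3 was lower in Cd offspring, at -0.04 ± 0.10, and the other 6 were higher. The differences were small: Nr4a2 differed by 0.30 ± 0.20, Egr1 by 0.23 ± 0.19 and Nr4a1 by 0.17 ± 0.19, and Nab2, Egr3 and Egr2 by 0.09 to 0.11, each with an adjusted p of 1. The interval of Egr1 reached from -0.22 to 0.68 and that of Egr3 from -0.13 to 0.31, so differences up to 1.60-fold and 1.24-fold lay within them.

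The response to stimulation was larger in Cd than in control offspring by 0.39 ± 0.11 on the log2 scale for Nab2 (limma adjusted p = 0.297), 0.25 ± 0.09 for Egr2 (adjusted p = 0.428) and 0.58 ± 0.27 for Nr4a1 (adjusted p = 0.502). In these 3 genes both Cd libraries lay below both control libraries before stimulation and above them after it, a pattern that 9.88% of all genes tested showed in 1 direction or the other. The response of Egr3 differed by -0.01 ± 0.13 and that of Nr4a3 by -0.26 ± 0.14 (adjusted p = 0.543).

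Replicate 7 of the Cd unstimulated group bears on these values. Relative to replicate 6 of its group it held 0.626 times the Egr1, 0.630 times the Nr4a1 and 0.712 times the Nr4a2 level, while Egr2, at 0.986 times, Egr3, at 0.957 times, and Nab2, at 1.04 times, were close. In the same library 18 of the 19 immediate early genes were lower than in replicate 6, with a median log2 difference of -0.49, beside -0.02 over all genes tested, of which 54.2% were lower. Without replicate 7, the difference between Cd and control unstimulated cells was -0.08 for Nr4a1 and 0.34 for Egr1, and without replicate 6 it was -0.75 (limma adjusted p = 0.0411) and -0.34. The Nab2 difference was -0.31 and -0.25 in these fits. Over all fits without 1 library it ranged from -0.40 to -0.16, and the Egr2 difference from -0.23 to -0.092. In the control unstimulated pair 12 of the 19 immediate early genes were lower in replicate 7, with a median log2 difference of -0.14. Of all genes tested 49.5% were lower there, and 6 of the 8 members were. Egr1 was at 0.844, Nab2 at 0.849 and Nr4a2 at 0.871 times its level in replicate 6, while Egr3 and Nr4a3 were at 1.22 times. Of 6 heat shock genes in unstimulated cells, Hsph1, a co-chaperone, and Hsp90aa1, the inducible HSP90, were called higher in Cd offspring, at 0.95 and 0.40. Hsph1 was also called in the interaction, at -0.97 (limma adjusted p = 0.0462). The part of these 2 genes in the values of the receptor-signal factors was not tested.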

How the data were processed

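The authors used subread with the mm10 build and featureCounts with RefSeq transcripts (versions and strand setting are not given in the sources used here), and deposited 1 table of log2 values for 27179 genes, read here as log2(RPKM + 1) + 0.0001. The scale came from the values: after the back-transform, 99.9% of ratios between libraries of 1163 low genes were ratios of whole reads (tolerance 1e-07 on the natural log), against 0% as deposited. The tests had been planned for RPKM and were run on the back-transformed values.

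Genes averaging 0.5 RPKM or more were fitted as log2(RPKM + 0.1), a scale that understates changes of low genes, in limma 3.58.1 under R 4.3.3, with a mean for each of 4 groups over all 8 libraries, trended moderation and Benjamini-Hochberg adjustment, and checked on simulated data. Stimulation was called at an adjusted p under 0.01 and over 2-fold, and Cd contrasts at an adjusted p under 0.05. Alternatives changed the pseudocount, filter, libraries, scaling, trend and replicate block, used limma voom with TMM factors on recovered reads, or left out a library. Named were all 8 members, up to 3 genes per list with the largest called changes each way, list genes called in a Cd contrast, the genes nearest in pattern, and, chosen after their values were seen, a few further list genes. Values of some single list genes are not reported here. Members and lists were chosen with earlier results of these data known. Tables and plots used Python 3.11.15, pandas 2.3.3 and matplotlib 3.10.9.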

Additional observations from a re-analysis of the deposited data

Results flagged for a closer look

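The Cd and control libraries, 2 a group, differed in opposite directions in unstimulated and stimulated cells for Egr2, Nr4a1 and Nab2, although no difference between them was called in either state, with both Cd libraries below both control libraries before stimulation and above them after it. The difference between the responses, tested as an interaction in limma, was 0.25 on the log2 scale for Egr2 (adjusted p = 0.428), 0.58 for Nr4a1 (adjusted p = 0.502) and 0.39 for Nab2 (adjusted p = 0.297), and none of them passed. Over the alternatives the adjusted p ranged from 0.25 to 0.75 for Egr2, from 0.0714 to 0.803 for Nr4a1 and from 0.132 to 0.642 for Nab2. A pattern of opposite directions without overlap was seen in 9.88% of all genes tested. For Nr4a1 the difference was 0.25 without Cd unstimulated replicate 7 and 0.91 without replicate 6.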

How the results depend on the processing

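Of 736 values of members under alternatives, 711 kept their direction and side of the threshold. For stimulation, 3 members were called in control offspring, or 4 where Nr4a2 was added, and 3 to 5 in Cd offspring when single libraries were left out. Without Cd unstimulated replicate 6, Egr1 was called for stimulation in Cd offspring (1.11) and Nr4a1 for Cd in unstimulated cells, so that 0 to 1 members were called there. The other counts for Cd stayed at 0.

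Directions turned only for differences between Cd and control offspring that were not called, the largest of them 0.23 for the response of Egr1 and -0.17 for Nr4a2 in unstimulated cells. In unstimulated cells Egr1 was at 0.0052 with quantile normalization and ranged from -0.34 to 0.34 without single libraries, Egr3 from -0.043 to 0.24, Nr4a2 from -0.42 to 0.074 and Nab1 from -0.033 to 0.19. In stimulated cells Nab1 ranged from -0.031 to 0.041. For the difference in response, Egr3 was at 0.020 with median-of-ratios scaling and ranged from -0.15 to 0.13, Egr1 from -0.11 to 0.57 and Nab1 from -0.18 to 0.037. The cause was not tested.

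Over all genes, 113 were called for Cd in unstimulated cells, against 65 with no filter, 52 with the libraries of the comparison, 14 with no trend, 204 with voom and 19 to 105 without single libraries. In stimulated cells the count was 0, with 414 genes at an unadjusted p under 0.05, against 9 with no filter, 2 with no trend and 0 to 3 without single libraries. For the difference in response it was 45, against 28 with no filter, 4 with no trend, 105 with voom, 25 with a block by offspring group and number, and 2 to 63 without single libraries.

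The labels do not say that a number marks 1 mouse. Deviations of libraries with the same number correlated at -0.11 to 0.06 over genes. Only within 1 kind of offspring could a number mark 1 mouse. There, unstimulated and stimulated libraries correlated at 0.064 in control and 0.0085 in Cd offspring. A replicate block by number, which joins control and Cd offspring, left the members called for stimulation at 3 in control and 4 in Cd offspring and 0 elsewhere. A block by offspring group and number also gave 3 and 4 for stimulation. A lone library was assumed to vary like the other groups. With 2 libraries a group, the standard errors of the members' Cd differences were 0.07 to 0.20 on the log2 scale.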
